A study of Mus musculus with 15 samples.

Results

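The 33 genes described here encode tubulins and proteins that bind, move along, build or cut microtubules. They were chosen by symbol, and each of them was found among the 25382 genes of the count table. They comprise 11 tubulin isotypes, 10 stathmins and structural microtubule-associated proteins (MAPs), 7 proteins of the growing plus end, and 5 motor, dynactin and severing genes. All 33 passed the filter on low counts, which kept 15190 genes, and MAP1A was the 1 member that averaged below 1 CPM (the count as a share of the library total in the usual CPM unit, scaled for library composition by the TMM method).

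The libraries are bulk mRNA from tumours that the triple-negative breast cancer line MDA-MB-231, of human origin and here GFP+ Luc+, formed in Nod/Skid mice. Fluid shear had first split the cells by strength of attachment. Shear was 10 dyn/cm2 for weakly adherent cells (6 libraries), 50 dyn/cm2 for strongly adherent cells (4 libraries) and absent for unsorted cells (5 libraries). Tumours were dissociated into single cells before RNA was made, and all 3 groups share the cell line, its GFP and luciferase reporters and the host strain. Each library is named by its adhesion group and the number in its title (4, 5, 6, 7-8, 9 or 10), which the titles set after the word Group. What this number stands for is not stated, nor is it stated whether libraries came from separate animals or clones. The p-values therefore reflect the spread among these libraries alone, part of which may be technical.

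Microtubules are hollow polymers of α- and β-tubulin dimers, nucleated by γ-tubulin. Stathmins bind free dimers, structural MAPs hold the polymer together, plus-end proteins govern growth, and kinesins and dynein carry cargo along it. In moving cells, microtubules help adhesions to turn over and keep front and rear apart, and in dividing cells they build the spindle. Several β-tubulin isotypes and MAPs are best known from neurons, although carcinoma cells also transcribe them.

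Total counts ran from 30372619 to 45434799 per library, and 16760 to 17974 genes had at least 1 count. Markers of the line were as the label says for hormone receptors and vimentin, with ESR1 at no more than 0.234 CPM, PGR at no more than 0.95 CPM and VIM at 1143 to 7399 CPM. ERBB2, the third receptor of the triple-negative label, ran from 76.6 to 145 CPM, and receptor protein was not measured. The epithelial genes EPCAM and KRT8 ran from 25.0 to 480 CPM and from 539 to 2379 CPM. CDH1, the epithelial cadherin that is usually scarce in this line, ran from 0.267 CPM in strongly adherent library 6 to 549 CPM. Its median was 116 CPM. Some libraries stood apart. The 14 striated muscle markers summed to 2488 CPM in strongly adherent library 5, and to 167, 399 and 1022 CPM in weakly adherent, strongly adherent and unsorted library 6, against 5.79 to 13.9 CPM in the other 11 libraries. In strongly adherent library 5 the 10 fibroblast markers also reached their highest sum, 1361 CPM, and the 8 endothelial markers their lowest, 36.7 CPM. Both sums rest mostly on single genes. COL1A1 alone gave 1059 CPM of the fibroblast sum there. COL3A1 and POSTN also peaked in that library, while COL1A2, DCN, LUM, PDGFRA, PDGFRB, FAP and THY1 peaked in others. Apart from ESAM, at 27.4 to 180 CPM, no endothelial marker exceeded 12.2 CPM in any library. Of the 12 neuron and nerve markers, NEFM had no count in any library, NEFL, INA and ELAVL4 stayed at or below 0.109 CPM, and GAP43 and SYP reached at most 1.17 and 1.98 CPM. SYT1 ran from 8.38 to 21.5 CPM and ENO2, a glycolytic enzyme also made outside neurons, from 63.9 to 196 CPM, and the list summed to 79.6 to 211 CPM per library. The part of other cell types in the results that involve strongly adherent library 5 or the libraries of number 6 was not tested. In bulk samples, fewer cells of a type and less RNA per cell cannot be told apart.

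The 10 α- and β-tubulin genes together took 0.521% (strongly adherent library 6) to 0.933% (unsorted library 5) of all counts. Among β-tubulin counts, TUBB, the broadly expressed class I gene, made up 62.5% to 74.8% across libraries. The share of TUBB4B, another widely expressed β-tubulin, ran from 12.6% to 21.6%. Among α-tubulin counts TUBA1B made up 44.0% to 50.7%. These shares follow gene length and mapping as well as mRNA number, so they are compared between libraries and not between genes. TUBA1A, TUBA1B and TUBA1C are near-identical copies, as are TUBB2A and TUBB2B, so reads may have been split among them or lost, and their single-gene values are uncertain.

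**Figure D1:**
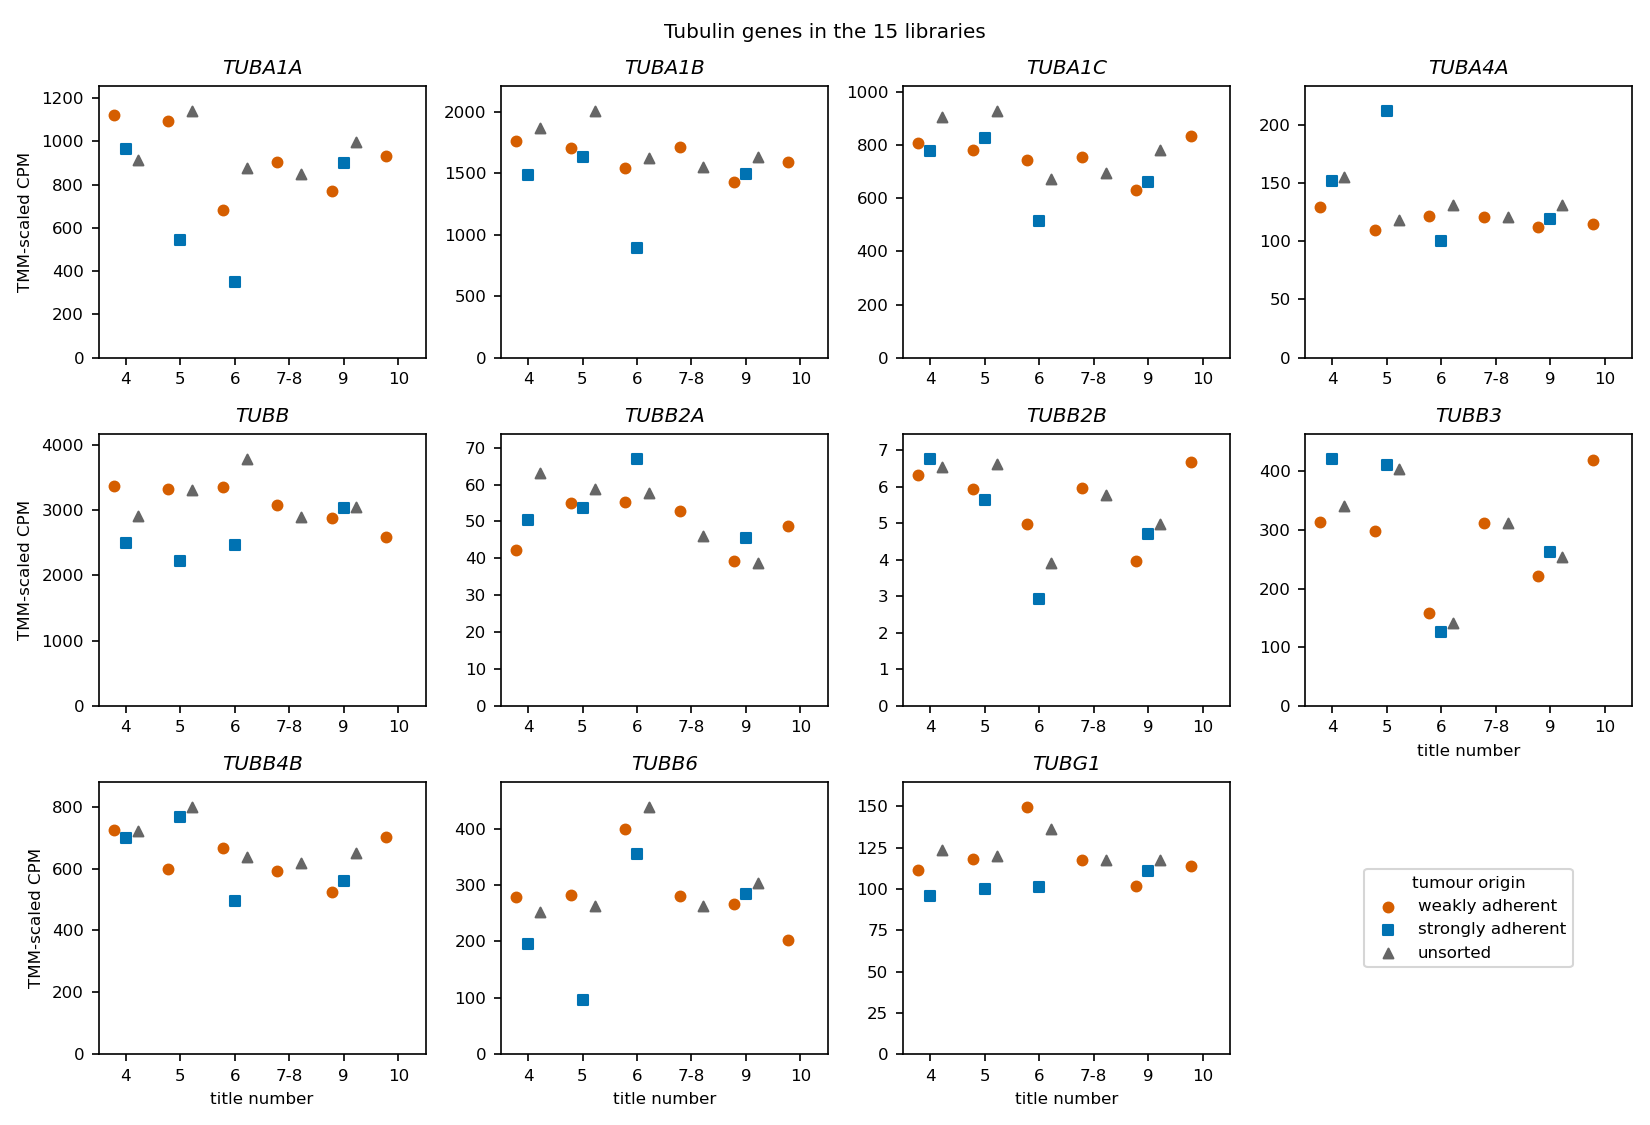
TMM-scaled CPM (linear axes from 0) of the 11 tubulin genes in each of the 15 libraries, by title number, with 1 point a library in the order weakly adherent, strongly adherent, unsorted. TUBB3 is low and TUBB6 high in all 3 libraries of number 6, while TUBA1A is lowest in strongly adherent library 6 (348 CPM) and next lowest in strongly adherent library 5.

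The contrasts between adhesion groups ask whether the adhesion class of the injected cells left a mark on the microtubule genes of the tumour. Libraries were compared within title numbers, with the number as a block in 1 fit across all genes. None of the 33 members passed an adjusted p of 0.05 (edgeR's quasi-likelihood test, Benjamini-Hochberg over 15190 genes) in any of the 3 contrasts. None of the 15190 genes did either, so the background share was 0% in each contrast. DESeq2 with the same block called 30, 0 and 23 genes for weakly against strongly adherent, weakly adherent against unsorted and strongly adherent against unsorted, and 0 members in each, and limma voom and limma-trend called 0 genes. The values below are therefore descriptions of size and direction.

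In strongly adherent against unsorted tumours, 9 of 33 members had an unadjusted p under 0.05 in edgeR's test, against 8.26% of all genes tested. They were TUBA1A, TUBA1B, TUBB, TUBB6 and TUBG1 among the tubulins, MAP1S, the end-binding gene MAPRE2, all with lower values in strongly adherent tumours, and MAP9 and KIF3A with higher values. The count depended on single libraries: it was 2 without strongly adherent library 5, 2 without unsorted library 5, 3 without strongly adherent library 4, 1 without number 6 and strongly adherent library 5, and 0 without strongly adherent libraries 5 and 6.

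TUBA1A, an α-tubulin prominent in developing neurons and also made by carcinoma cells, had 964, 544, 348 and 902 CPM in strongly adherent libraries 4, 5, 6 and 9, against 916, 1142, 879, 850 and 998 CPM in unsorted libraries 4, 5, 6, 7-8 and 9. Libraries 5 and 6 lay below every unsorted library, and libraries 4 and 9 lay among them. The log2 fold change, strongly adherent over unsorted, was -0.57 ± 0.22 (SE), with a 95% interval of -1.04 to -0.11 and an adjusted p of 0.573 in edgeR's quasi-likelihood test. It was -0.41 without strongly adherent library 5, -0.35 without number 6 and -0.04 without both. The weakly adherent libraries ranged from 684 to 1124 CPM with a median of 919 CPM.

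TUBB had 2503, 2221, 2461 and 3039 CPM in strongly adherent libraries 4, 5, 6 and 9, against 2909, 3308, 3787, 2897 and 3046 CPM in unsorted libraries 4, 5, 6, 7-8 and 9. Strongly adherent libraries 4, 5 and 6 lay below every unsorted library, and number 9 lay within the unsorted range. The log2 fold change was -0.34 ± 0.14 (SE; adjusted p = 0.581, edgeR), and -0.12 without number 6 and strongly adherent library 5. TUBG1, the γ-tubulin that nucleates microtubules, had 95.9, 100, 101 and 111 CPM in strongly adherent libraries, all below the lowest of the unsorted libraries, which had 124, 120, 136, 118 and 118 CPM. Its log2 fold change was -0.28 ± 0.11 (SE; adjusted p = 0.573, edgeR), and the weakly adherent libraries, at 102 to 150 CPM with a median of 116 CPM, overlapped both groups. Without number 6 and strongly adherent library 5 the TUBG1 fold change was -0.19.

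TUBB6, a β-tubulin known from non-neuronal tissue including regenerating muscle, had 195, 95.3, 354 and 285 CPM in strongly adherent libraries 4, 5, 6 and 9, and 253, 262, 438, 262 and 304 CPM in unsorted libraries. The value of strongly adherent library 5 was the lowest of all 15, in the library with the highest muscle marker sum. Within pairs the log2 difference was -0.37, -1.46, -0.31 and -0.10 for numbers 4, 5, 6 and 9, so the sign was shared and the size was not. The fitted value of -0.50 was -0.22 without strongly adherent library 5.

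Across the 11 tubulin genes the fold changes of strongly adherent over unsorted were negative for 8, with a median log2 fold change of -0.22, against 0.01 over all genes tested. TUBB3, TUBB2A and TUBA4A were the 3 with positive values, 0.08, 0.03 and 0.11. Within the pairs, 8, 9, 10 and 9 of the 11 were lower in the strongly adherent library for numbers 4, 5, 6 and 9. The median was -0.14 without strongly adherent library 6, -0.24 without strongly adherent library 5, and -0.13 without both. The 11 genes are read from the same libraries, so their shared direction is not independent evidence.

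Of all 33 members, 7 were lower in the strongly adherent than in the unsorted library in each of the 4 pairs, a state that 9.03% of all genes tested shared. These were TUBA1B, TUBA1C, TUBB, TUBB4B, TUBB6, TUBG1 and MAP1S. Another 2, MAP9 and MAPT, were higher in each of the 4 pairs, a state that 10.7% of all genes shared. The title numbers were not shown to pair libraries, so these counts rest on pairs made by a shared number alone.

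The remaining tubulins and MAPs are given by their range. TUBA1B ranged from 890 to 2011 CPM over the 15 libraries, TUBA1C from 516 to 930 CPM and TUBB4B from 496 to 799 CPM. For TUBA1B and TUBA1C the lowest value was that of strongly adherent library 6, as it was for TUBB4B, and the highest was that of unsorted library 5. TUBA4A, an α-tubulin known from muscle, brain and platelets, ran from 101 CPM in strongly adherent library 6 to 212 CPM in strongly adherent library 5. TUBB2A ranged from 38.8 to 66.9 CPM and TUBB2B from 2.94 to 6.77 CPM. MAP1B, a MAP of growing axons, ran from 140 to 266 CPM, MAP4 from 301 to 572 CPM, and MAP1A, a MAP of mature neurons, from 0.292 to 1.04 CPM.

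**Figure D2:**
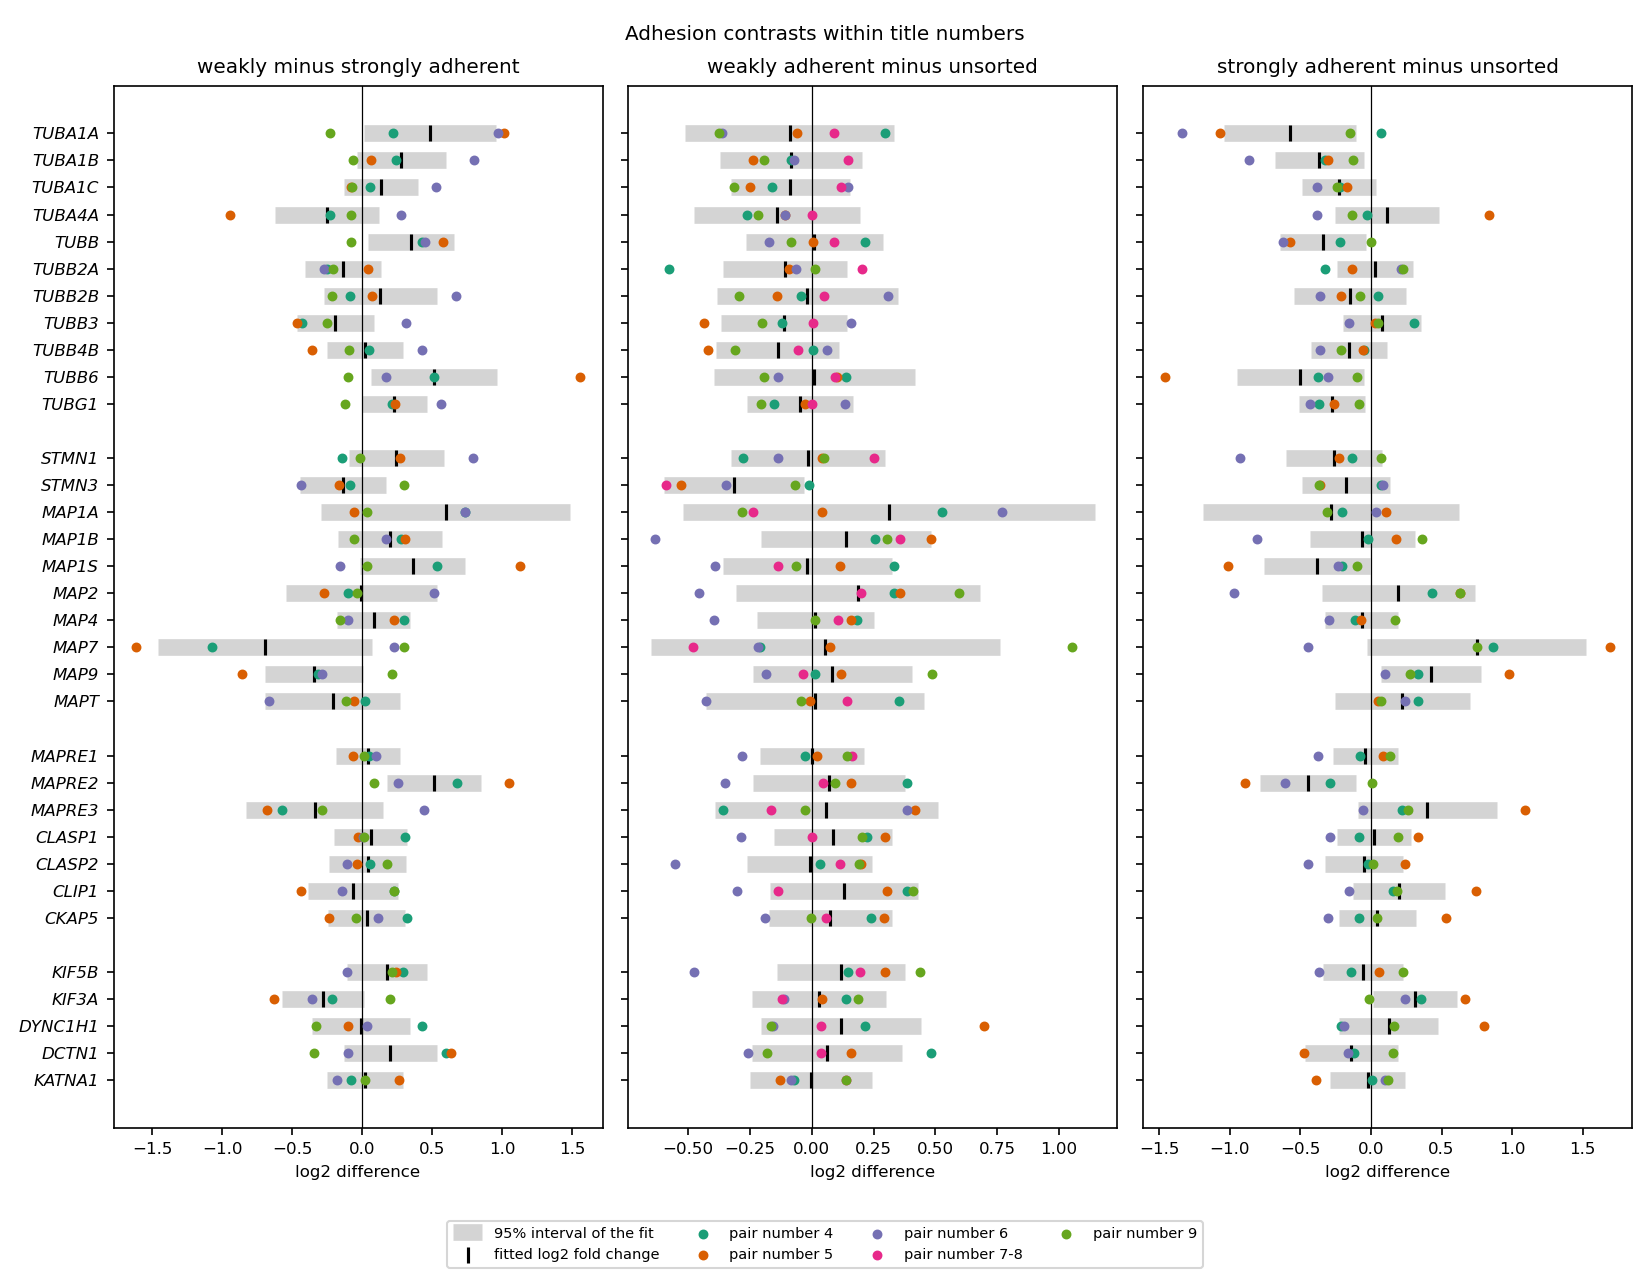
Log2 differences between adhesion groups for the 33 members, by role from top to bottom: points are the difference within each title number on log2(CPM + 0.5), ticks the fitted log2 fold change and grey bars its 95% interval. In the panel of strongly adherent minus unsorted most tubulin points lie below 0, TUBA1A spreads from -1.34 to 0.07, and no member of any panel passed the adjusted test.

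Outside the tubulins, MAP9, a spindle and aster MAP, had 28.9, 37.2, 23.3 and 19.4 CPM in strongly adherent libraries 4, 5, 6 and 9, against 22.9, 18.7, 21.7, 23.0 and 16.0 CPM in unsorted libraries. Its log2 fold change was 0.42 ± 0.16 (SE; adjusted p = 0.573, edgeR), and 0.22 without strongly adherent library 5. MAP7, which links microtubules to the conventional kinesin, was the member with the largest fitted value in this contrast, 0.75 ± 0.36 (SE; adjusted p = 0.612, edgeR). That value came with 16.1 and 25.8 CPM in strongly adherent libraries 4 and 5, against 1.47 and 6.91 CPM in strongly adherent libraries 6 and 9. Unsorted libraries had 2.19 to 11.5 CPM, so the strongly adherent values lay on both sides of the unsorted ones. The fitted value was 0.34 without strongly adherent library 5 and 1.08 without number 6.

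Stathmin, encoded by STMN1, which sequesters tubulin dimers, had 657, 573, 460 and 660 CPM in strongly adherent libraries 4, 5, 6 and 9, against 722, 672, 877, 692 and 629 CPM in unsorted libraries. In the fit this was a log2 fold change of -0.26 ± 0.16 (SE; adjusted p = 0.658, edgeR), and -0.07 without number 6. The plus-end genes CLASP1 and CLASP2, which stabilise microtubule ends near the cell edge, gave 0.02 and -0.05, with 95% intervals from -0.24 to 0.28 and from -0.32 to 0.23. CKAP5, the microtubule polymerase, gave 0.04 with an interval of -0.23 to 0.32. KIF3A, a kinesin that serves cilia among other cargoes, had 24.0, 28.6, 20.7 and 19.7 CPM in strongly adherent libraries, against 18.7, 17.8, 17.4, 19.3 and 19.9 CPM in unsorted libraries (0.31 ± 0.14, SE; adjusted p = 0.590, edgeR). Strongly adherent library 9 was the 1 of its group within the unsorted range, and the KIF3A fold change was 0.18 without strongly adherent library 5.

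Weakly against strongly adherent tumours showed 4 members with an unadjusted p under 0.05 in edgeR's test (TUBA1A, TUBB, TUBB6 and MAPRE2), against 6.78% of all genes tested. All 4 had higher values in weakly adherent tumours. The count was 1 without strongly adherent library 5, weakly adherent library 4 or weakly adherent library 5, 2 without strongly adherent library 4, and 0 without strongly adherent libraries 5 and 6. It was 8 without number 6, strongly adherent library 6 or weakly adherent library 9, 7 without weakly adherent library 6, and 11 without strongly adherent library 9. MAPRE2, whose product binds growing ends more weakly than its relatives do, had 39.3 to 54.3 CPM in weakly adherent libraries with a median of 48.6 CPM, against 33.8, 24.9, 41.0 and 45.4 CPM in strongly adherent libraries 4, 5, 6 and 9. The groups overlapped, and the lowest value was again that of strongly adherent library 5. Fitted over the pairs, the log2 fold change was 0.51 ± 0.16 (SE), with a 95% interval of 0.18 to 0.85, unadjusted p = 0.00599 and adjusted p = 0.698 (edgeR). The value was 0.36 without strongly adherent library 5 and 0.59 without number 6. Within numbers 4, 5, 6 and 9 the log2 difference was 0.68, 1.05, 0.26 and 0.08. MAPRE2 was the 1 member higher in each of the 4 pairs, a state that 5.17% of all genes shared. No member was lower in each pair, against 6.16% of all genes.

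Of the 11 tubulins, 8 had a positive fold change of weakly over strongly adherent, with a median of 0.14 against -0.01 over all genes. That direction was not shared by all numbers. In numbers 4, 5 and 6 the weakly adherent library was higher for 7, 7 and 10 of the 11, and in number 9 for 0 of the 11. Without strongly adherent libraries 5 and 6 the median was -0.01, with 5 of 11 positive. This contrast and the preceding one share the strongly adherent libraries, so the same libraries set both.

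Weakly adherent against unsorted tumours gave the smallest differences. Fitted log2 fold changes of the 33 members ran from -0.31 for STMN3 to 0.31 for MAP1A. STMN3, a stathmin relative best known from neurons, had 12.9 to 25.2 CPM in weakly adherent libraries with a median of 17.7 CPM, against 20.6, 25.9, 16.5, 24.2 and 18.4 CPM in unsorted libraries 4, 5, 6, 7-8 and 9. It was the 1 member with an unadjusted p under 0.05 (0.0325; adjusted p = 0.9997, edgeR), against 1.13% of all genes tested. It was also the 1 member lower in each of the 5 pairs, a state that 1.52% of all genes shared, and no member was higher in each pair, against 1.38% of all genes. The end-binding gene MAPRE1 gave 0.00 with a 95% interval of -0.21 to 0.21, and the tubulin median was -0.09 with 2 of 11 positive.

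The spread between title numbers was larger than that between groups for most members. A median of 46.3% of a member's variance in log2 CPM lay between the 6 numbers, against 50.5% for all genes tested, and 7.43% lay between the 3 adhesion groups, against 7.39% for all genes. With no effect at all, 35.7% and 14.3% would lie there on average, since there are more numbers than groups. TUBB3 was at one end, with 93.0% between numbers and 0.00356% between groups. MAPRE3, MAPT and TUBB2B followed with 86.1%, 79.9% and 78.4% between numbers. TUBB was at the other end, with 11.5% between numbers and 44.7% between groups, and TUBG1 had 23.7% and 43.9%. MAPRE1 hardly varied at all, its CPM running from 233 to 312.

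A test for any difference between title numbers called 3 members (edgeR's quasi-likelihood test), which is 9.09% of the 33, against 7.9% of all genes tested. They were TUBB3 (adjusted p = 0.00252), MAPRE3 (adjusted p = 0.0119) and MAP7 (adjusted p = 0.0247). At an unadjusted p under 0.05 there were 11 members, against 26.2% of all genes. DESeq2 with the block called 9 members, adding TUBB6, MAP1S, MAP2, MAPT, KIF5B and DCTN1, beside 3344 genes in all. Without the 3 libraries of number 6, 0 members were called, with 3 at an unadjusted p under 0.05, beside 3 genes in all. Without strongly adherent library 6 alone, TUBB3 was the 1 member called.

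The number 6 libraries were then set against the mean of the other 5 numbers, adjusted for adhesion group. Number 6 was already known to stand apart in these data when it was chosen. Its p-values are therefore not those of a test set beforehand. In that contrast 11 of the 33 members passed (edgeR, adjusted p under 0.05), or 33.3%, against 27.9% of all genes tested. At an unadjusted p under 0.05 there were 17 members, against 40.7% of all genes. The members' share lay near that of all genes, so it is not a result about microtubule genes. Several lists of markers of other cells and states moved with number 6 as well. Counts here are of the markers that passed the filter on low counts, such as 8 of 10 for fibroblasts, 6 of 8 for endothelium and 6 of 10 for leukocytes. Past the threshold were 8 of 14 striated muscle markers (7 higher and 1 lower), 4 of 8 fibroblast markers (all lower), 4 of 6 endothelial markers (all higher) and 4 of 6 leukocyte markers (1 higher and 3 lower). So were 7 of 12 immediate early and dissociation genes (all higher) and 8 of 11 markers of the cell line itself (2 higher and 6 lower). Below the 27.9% of all genes were the neuron and nerve list (1 of 7, lower), the Schwann cell list (1 of 5, higher) and the adipocyte list (0 of 2). The part of any of these lists in the member values was not tested. TUBB6, MAP1S, MAPT, DCTN1 and KIF5B rose in number 6, and MAP7, MAPRE3, TUBB3, MAP2, TUBB2B and STMN3 fell. Genes past the threshold in the higher direction were 11.6% of all, and in the lower direction 16.4%.

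TUBB3, the class III β-tubulin of neurons that many carcinomas also make, had 158, 126 and 141 CPM in weakly adherent, strongly adherent and unsorted library 6, against 221 to 421 CPM with a median of 313 CPM in the other 12 libraries. The 3 values lay below all 12 others. The log2 fold change, number 6 over the rest, was -1.26 ± 0.13 (SE), with a 95% interval of -1.55 to -0.97 and an adjusted p of 0.000118 in edgeR's quasi-likelihood test. TUBB6 showed the opposite, with 399, 354 and 438 CPM in weakly adherent, strongly adherent and unsorted library 6, against 95.3 to 304 CPM with a median of 264 CPM in the other 12. Its log2 fold change was 0.81 ± 0.19 (SE; adjusted p = 0.00936, edgeR), and without strongly adherent library 6 the adjusted p was 0.0643.

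TUBB3 made up 2.79% to 3.60% of β-tubulin counts in the number 6 libraries, against 5.62% to 11.5% in the other 12. TUBB6 made up 8.59% to 10.1% in number 6, against 2.68% to 7.08%. The ratio of α- to β-tubulin counts was 0.529 to 0.667 in number 6, against 0.748 to 0.905 in the other 12 libraries. In none of these 3 measures did the number 6 libraries overlap the others. All 3 use the same β-tubulin counts, and TUBB3 and TUBB6 already lay apart in CPM, so they are not separate evidence. Of all genes tested, 16% likewise had no overlap in CPM. No such background was computed for shares or ratios. No α-tubulin passed the threshold in this contrast in edgeR's test with all 15 libraries, and neither did TUBB. TUBA1B gave -0.28 ± 0.14 (SE; adjusted p = 0.159, edgeR), TUBA1A gave -0.54 ± 0.21 (SE; adjusted p = 0.0730, edgeR) and TUBA1C gave -0.27 ± 0.12 (SE; adjusted p = 0.101, edgeR). TUBA4A gave -0.15 ± 0.16 (SE; adjusted p = 0.514, edgeR) and TUBB gave 0.18 ± 0.13 (SE; adjusted p = 0.324, edgeR). In other settings TUBA1A did pass, with DESeq2 (adjusted p = 0.0352) and in edgeR without strongly adherent library 5 (adjusted p = 0.0436) or unsorted library 6 (adjusted p = 0.0494). TUBA1C passed without weakly adherent library 6 (adjusted p = 0.0331, edgeR).

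**Figure D3:**
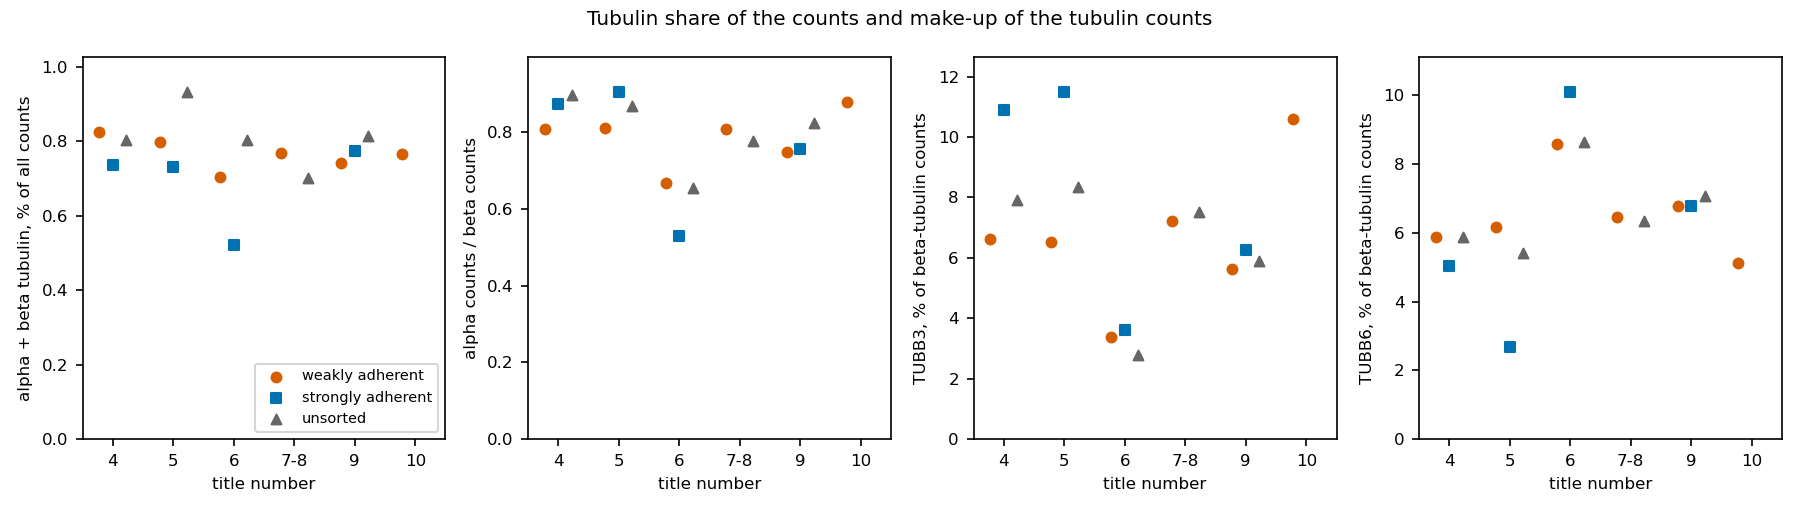
The share of α- and β-tubulin genes in all counts, the ratio of α- to β-tubulin counts, and the shares of TUBB3 and TUBB6 in β-tubulin counts, by title number, with 1 point a library and all axes from 0. The 3 libraries of number 6 lie below the other 12 in the ratio and in the TUBB3 share, and above them in the TUBB6 share.

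Among the MAPs, MAP7 gave the lowest fold change of all members. It had 1.81, 1.47 and 2.19 CPM in weakly adherent, strongly adherent and unsorted library 6, against 3.90 to 25.8 CPM with a median of 8.35 CPM in the other 12, and no value overlapped. Its fitted log2 fold change was -2.44 ± 0.39 (SE), with a 95% interval of -3.30 to -1.58 and an adjusted p of 0.00139 in edgeR's quasi-likelihood test. MAP2, the dendritic MAP, had 3.53, 2.33 and 5.04 CPM in the number 6 libraries, against 4.51 to 9.46 CPM in the others, so unsorted library 6 overlapped them. Its log2 fold change was -1.01 ± 0.26 (SE; adjusted p = 0.0129, edgeR). STMN3, with 12.9, 17.6 and 16.5 CPM in number 6 and 14.2 to 25.9 CPM in the others, overlapped as well (-0.43 ± 0.14, SE; adjusted p = 0.0406, edgeR), and so did the scarce TUBB2B (-0.57 ± 0.18, SE; adjusted p = 0.0349, edgeR).

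MAP1S, the broadly expressed relative of the neuronal MAP1 proteins, had 104, 117 and 137 CPM in weakly adherent, strongly adherent and unsorted library 6, against 48.3 to 106 CPM with a median of 78.4 CPM in the other 12. Weakly adherent library 6 lay just inside the range of the others. Number 6 over the rest gave a log2 fold change of 0.75 ± 0.16 (SE; adjusted p = 0.00545, edgeR). MAPT, which encodes tau, had 2.76, 4.68 and 3.89 CPM in the number 6 libraries, against 1.72 to 2.61 CPM in the others, without overlap (0.75 ± 0.21, SE; adjusted p = 0.0191, edgeR). MAP4, the main MAP of non-neuronal cells, did not pass (0.27 ± 0.11, SE; adjusted p = 0.0958, edgeR). It did pass with DESeq2 (adjusted p = 0.0489) and without weakly adherent library 6 (adjusted p = 0.0352, edgeR). MAP1B passed without unsorted library 6 (adjusted p = 0.0129, edgeR).

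**Figure D4:**
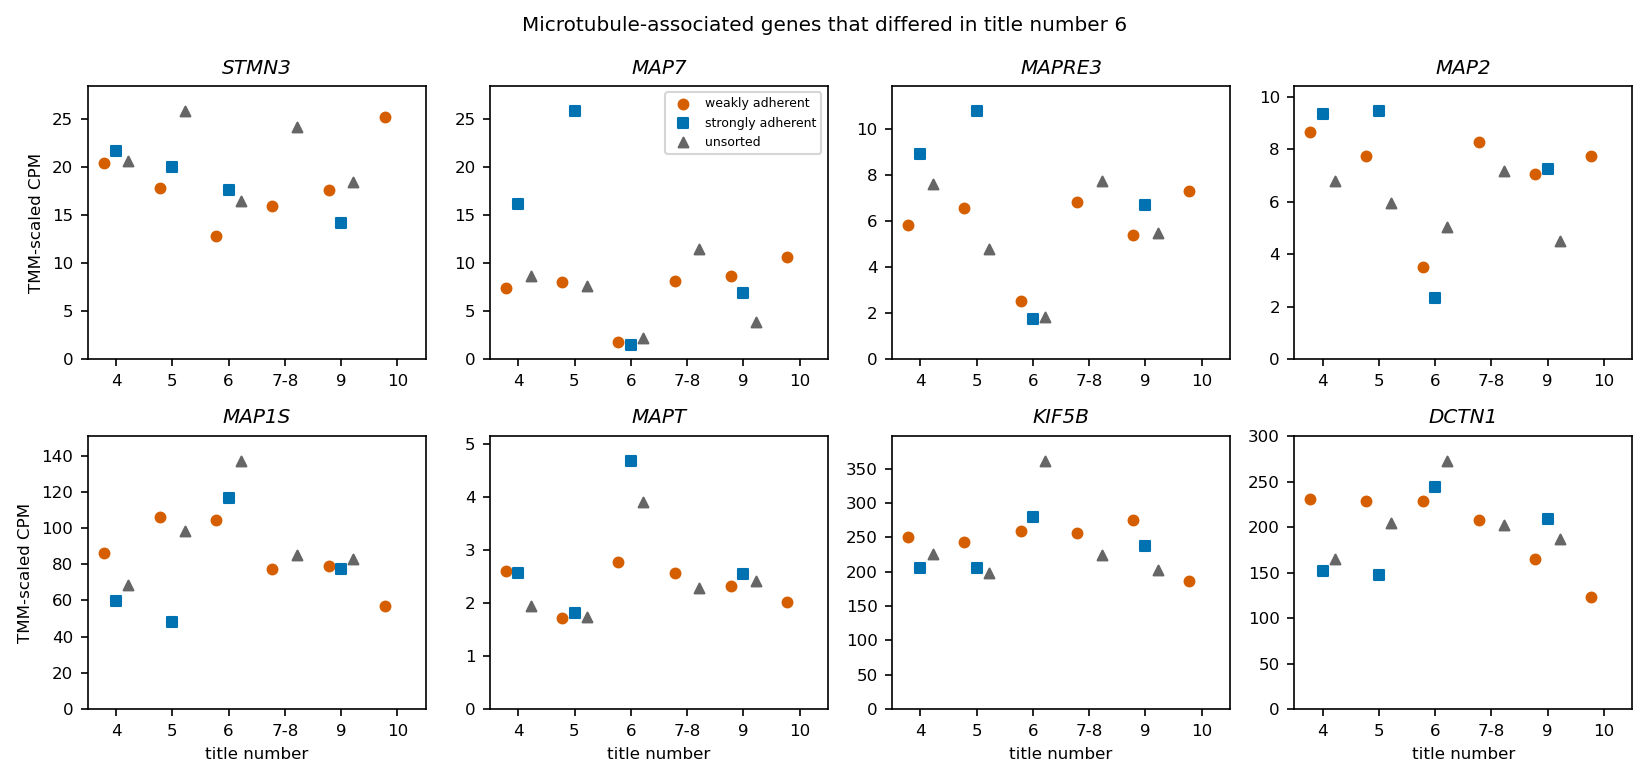
TMM-scaled CPM (linear axes from 0) of the 8 members other than tubulins that passed the test of number 6 against the rest, by title number, with 1 point a library in the order weakly adherent, strongly adherent, unsorted. MAP7 and MAPRE3 are lowest in all 3 libraries of number 6, while KIF5B is high in unsorted library 6 (362 CPM) and within the range of the others in weakly adherent library 6.

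Of the 7 plus-end genes, 1 passed in number 6. MAPRE3, the end-binding gene most prominent in brain and muscle, had 2.55, 1.74 and 1.83 CPM in weakly adherent, strongly adherent and unsorted library 6, against 4.80 to 10.8 CPM with a median of 6.78 CPM in the other 12. The groups did not overlap, and the log2 fold change was -1.80 ± 0.25 (SE), with an interval of -2.33 to -1.27 and an adjusted p of 0.000481 in edgeR's quasi-likelihood test. Its relatives gave 0.10 for MAPRE1 and 0.32 for MAPRE2, with adjusted p of 0.485 and 0.122 (edgeR). CLASP1, CLASP2, CLIP1, a linker of growing ends, and CKAP5 lay between -0.12 and 0.12.

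Among motors, KIF5B, the heavy chain of the conventional kinesin, had 260, 280 and 362 CPM in weakly adherent, strongly adherent and unsorted library 6, against 187 to 275 CPM with a median of 225 CPM in the other 12. Weakly adherent library 6 lay within that range. In log2 terms number 6 was higher by 0.48 ± 0.12 (SE; adjusted p = 0.0139, edgeR), by 0.30 without unsorted library 6 (adjusted p = 0.0818, edgeR) and by 0.50 without strongly adherent library 6 (adjusted p = 0.0508, edgeR). DCTN1, the large dynactin subunit that ties dynein to microtubules, had 228, 244 and 273 CPM in number 6 and 123 to 231 CPM in the others (0.54 ± 0.14, SE; adjusted p = 0.0167, edgeR). DYNC1H1, the dynein heavy chain, gave 0.40 ± 0.15 (SE; adjusted p = 0.0661, edgeR), and KATNA1, the severing subunit of katanin, gave 0.18 ± 0.12 (SE; adjusted p = 0.279, edgeR). DYNC1H1 did pass with DESeq2 (adjusted p = 0.035) and without strongly adherent library 5 (adjusted p = 0.03465, edgeR).

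In all, 5 of the 33 members had number 6 libraries entirely outside the range of the other 12 (TUBB3, TUBB6, MAP7, MAPT and MAPRE3), or 15.2%, against 16% of all genes tested. TUBB3, MAP7, MAPRE3 and MAP1S passed in each of the 24 other settings tried. TUBB6 passed in 23, KIF5B in 22, MAP2 and MAPT in 21, DCTN1 in 20, STMN3 in 15 and TUBB2B in 14. MAP2 and MAPT each lost the call without strongly adherent library 6, with adjusted p of 0.0704 and 0.108 (edgeR). DCTN1 and STMN3 each lost it without weakly adherent library 10, with adjusted p of 0.0601 and 0.105 (edgeR). Without strongly adherent library 6, 5 members passed beside 1981 genes in all.

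**Figure D5:**
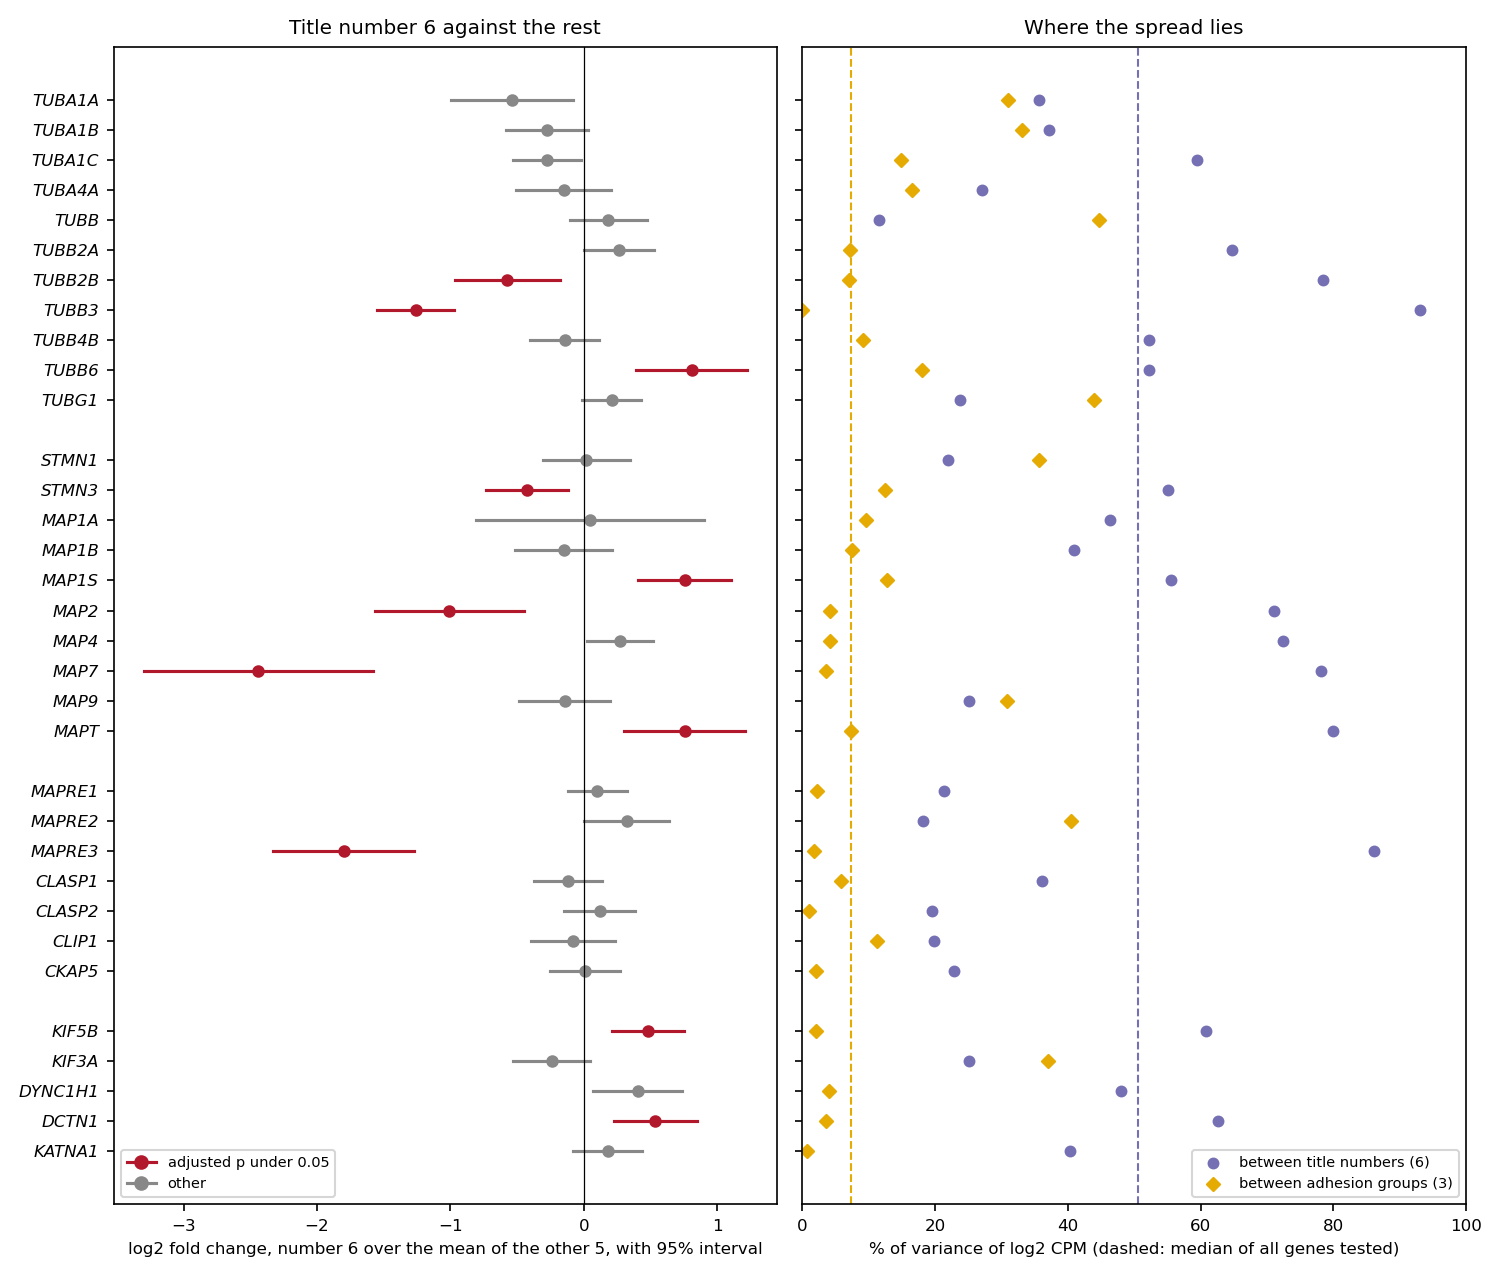
Left, log2 fold change of number 6 over the mean of the other 5 numbers with its 95% interval for the 33 members by role (red, adjusted p under 0.05). Right, the share of each member's variance of log2 CPM lying between title numbers (circles) and between the 3 adhesion groups (diamonds), with dashed lines at the medians of all genes tested, 50.5% and 7.39%. TUBB3, MAP7 and MAPRE3 combine low values in number 6 with most of their variance between numbers.

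The other title numbers gave no call among the members, where number 10 rests on 1 library and number 7-8 on 2. Numbers 4, 5, 7-8, 9 and 10 against the rest called 0 members each in edgeR's test, against 0%, 0%, 0.0658%, 0.0197% and 0% of all genes tested. At an unadjusted p under 0.05 there were 1, 3, 0, 4 and 5 members, while all genes gave 5.5%, 9.06%, 5.36%, 10% and 14.3%. DESeq2 with the block called 28, 91, 96, 99 and 312 genes in these contrasts. Once number 6 was left out, number 9 against the rest called TUBB3, which had 221, 263 and 254 CPM in weakly adherent, strongly adherent and unsorted library 9, the lowest values outside number 6.

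Beyond the 33 members, 196 other genes of the microtubule system were listed in 11 groups, of which 194 were in the table and 180 were tested. None passed in any of the 3 adhesion contrasts in edgeR's test. The chaperones and cofactors that fold tubulin, such as the CCT ring and prefoldin, had negative fold changes of strongly adherent over unsorted for 20 of 22. Their median was -0.09, and 0 of them reached an unadjusted p under 0.05 in edgeR's test. Over all genes, 7276 of 15190 were negative, with a median of 0.01. The 22 genes are read from the same libraries, so their shared direction is not independent evidence. In number 6 against the rest, 6 of these 22 passed, all higher, or 27.3%, against 27.9% of all genes tested. PFDN6, a prefoldin subunit, had 69.6 to 109 CPM in number 6 and 39.2 to 58.0 CPM in the others (0.79 ± 0.13, SE; adjusted p = 0.00136, edgeR).

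The gene with the lowest fold change among these lists was CAMSAP3, whose product caps microtubule minus ends in epithelial cells. It had 0 to 0.707 CPM in the number 6 libraries, against 5.07 to 20.3 CPM in the other 12, a log2 fold change of -4.87 ± 0.63 (SE; adjusted p = 0.000625, edgeR). HOOK1, a dynein adaptor, had 0.695 to 1.44 CPM against 3.06 to 20.7 CPM (-2.58 ± 0.48, SE; adjusted p = 0.00321, edgeR). KLC3, a kinesin light chain, had 6.45 to 8.75 CPM against 13.2 to 21.4 CPM (-1.21 ± 0.18, SE; adjusted p = 0.000651, edgeR). Higher in number 6 were MAP7D3, a MAP7 relative, at 0.60 ± 0.11 (SE; adjusted p = 0.00199, edgeR) and AGTPBP1, which trims glutamate chains from tubulin, at 0.57 ± 0.13 (SE; adjusted p = 0.00616, edgeR).

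The other groups are read against the same 27.9% of all genes (11.6% higher and 16.4% lower), and a share near it is not a result about a group. In number 6, 6 of 16 transport kinesins and their partners passed (37.5%, 2 higher and 4 lower) and 6 of 28 dynein, dynactin and adaptor genes (21.4%, 2 higher and 4 lower). So did 6 of 22 further stathmins and MAPs (27.3%, 2 higher and 4 lower) and 4 of 17 tubulin-modifying enzymes (23.5%, 3 higher and 1 lower). Of 20 further plus-end genes 3 passed (15%, all higher), of 9 genes of the γ-tubulin ring complex 1 passed (11.1%, higher), and of 6 further tubulins 1 passed (16.7%, lower). None of the 7 further severing genes and none of the 11 mitotic kinesins passed in edgeR's test, with 0 and 1 of them at an unadjusted p under 0.05. Of 22 spindle and cell cycle genes AURKA, a mitotic kinase, was the 1 that passed (4.55%), and their summed CPM ran from 1830 in strongly adherent library 6 to 2625 in strongly adherent library 5.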

How the data were processed

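The 15 libraries were Illumina TruSeq stranded RNA libraries read as 50 bp single ends, per the labels' protocols. The tools named are cutadapt, FastQC, STAR, HTSeq and DESeq2, with build hg19, per the submitters' processing notes. Their versions, and whether counting used strand, are not given in the sources used here, so reads of overlapping antisense genes cannot be told apart from those of a member. The labels give mouse as the organism while the genes are human, so reads of the host may be among the counts. The authors deposited raw counts for 25382 genes, and a table of log2 values that equal log2 of count over size factor plus 1 to within 5.15e-14. Counts were used for every test and the deposited log2 values for limma-trend.

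Counts were fitted in R 4.3.3 with edgeR 4.0.16 (TMM, filterByExpr by group, robust quasi-likelihood, two-sided) with title number and adhesion group as terms, and adjusted by Benjamini-Hochberg over 15190 genes at a threshold of 0.05. The biological coefficient of variation was 22.4%. Standard errors are the absolute log2 fold change over the square root of F, and 95% intervals use the t distribution, which makes them approximate. Number 6 and each other number were set against the mean of the remaining numbers. Each number counted alike in that mean, although number 10 is 1 weakly adherent library, number 7-8 has 2 libraries and the others have 3. The fit was also run on counts simulated from its own means and spread. Such a run cannot test whether numbers pair libraries, nor the choice of number 6. Other tools were limma 3.58.1 and DESeq2 1.42.0. The title number is a block because libraries are compared within numbers. Members and lists were chosen with earlier results of these data known. All members are reported. Of further lists, the genes that may be named are those past the threshold in number 6, up to 2 at the top and 2 at the bottom by fold change, and not all are used. No pair of libraries within a group agreed within sampling noise. No gene lengths or human sequences were used here, so levels are not compared between genes. Because title number is a fitted term, intervals and p-values rest on the spread between libraries left within numbers. They do not cover how far any single number, such as number 6, departs from others by itself.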

Additional observations from a re-analysis of the deposited data

Results flagged for a closer look

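In groups of 4 to 6 libraries, 8 of the 99 sets of values (33 members in 3 groups) had a library whose gap to its neighbour took most of the group's range, and chance flags about 1 set in 20. The sets are read from the same 15 libraries, so the flags are not independent, and an excess over chance was not tested. Of the 8, 4 were high values of unsorted library 6. TUBB6 had 438 CPM there, against 253 to 304 CPM in the other unsorted libraries, and KIF5B had 362 CPM, against 198 to 226 CPM. MAPRE2 had 62.7 CPM in unsorted library 6, against 41.5 to 46.6 CPM, and CLASP2 had 63.6 CPM, against 43.7 to 48.2 CPM.

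Weakly adherent library 6 gave 3 of the 8. TUBG1 was high there at 150 CPM, against 102 to 118 CPM in the other weakly adherent libraries. MAP2 was low at 3.53 CPM, against 7.07 to 8.67 CPM, and MAP7 was low at 1.81 CPM, against 7.41 to 10.6 CPM. The last was KIF5B in weakly adherent library 10, low at 187 CPM, against 243 to 275 CPM.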

How the results depend on the processing

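In every setting run, 0 members passed in the 3 adhesion contrasts. Over all genes, DESeq2 with the block called 30 genes for weakly against strongly adherent and 23 for strongly adherent against unsorted, and leaving out single libraries gave 0 to 4 for strongly adherent against unsorted. The fit without the replicate block called 0 genes in each contrast, with 4, 0 and 6 members at an unadjusted p under 0.05. Same-numbered libraries correlated in their deviations from the group means at 0.017 to 0.793, with 11 of 13 pairs over 0.1, median 0.272, against a median of -0.051 and 18 of 61 over 0.1 for pairs of other numbers. Number 6 weighed on this: its own pairs gave 0.686 to 0.793, and its libraries went down to -0.752 with other numbers. Outside number 6, same-numbered pairs reached at most 0.577, while strongly adherent library 4 and unsorted library 7-8 gave 0.635. Of the same-numbered pairs 2 fell short of 0.1, and 7 of 14 libraries correlated best with their own number. The number is thus a hint of pairing from the data and not shown by the design.

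The test between title numbers called 9 members and 3344 genes with DESeq2, 0 and 3 without number 6, 0 and 54 without number 6 and strongly adherent library 5, and 3 and 560 without strongly adherent libraries 5 and 6. Leaving out 1 library each gave 1 to 5 members and 386 to 1621 genes. Number 6 against the rest called 7 members and 2495 genes without strongly adherent libraries 5 and 6, and 5 to 13 members and 1981 to 4231 genes with 1 library left out. Number 9 against the rest called 1 member without number 6, with or without strongly adherent library 5, and number 10 called 0 to 1 with 1 library left out. Over all genes the other numbers called 0 to 312. No member that passed in number 6 changed sign. Fits without number 6 and without strongly adherent libraries 5 and 6 were chosen after results of these data were known. So were the contrasts of number 6 and of the other numbers. The causes were not tested. Scarce genes such as MAP1A, with intervals over 1 log2 unit wide, limit what depth allows.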
